A study of Mus musculus with 14 samples.

Results

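The genes described here have little recorded link to noradrenaline: Shisal2b, Adgre1, Calcr, Gnb3, Hspb3, Ndufa4l2, Tmc3, Apol10a and the non-coding RNAs 5033406O09Rik and Gm50423. They are 10 of the 55422 features counted. They were chosen from the same libraries because, in each animal, the ratio of their level in the immunoprecipitate (IP) to that in the homogenate (pre-IP) followed the ratio of Dbh, the enzyme that makes noradrenaline from dopamine. Their IP over pre-IP values, and the difference that follows from them between tau and EYFP IP libraries, are therefore given as a description, with no test.

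The study used TH-Cre;Slc6a2-eGFP/Rpl10a mice, infused at 2 to 3 months of age into the locus coeruleus with P364S mutant human tau or with EYFP, a fluorescent protein. Letters name the animals: B, C, L and M received tau, H, I and K received EYFP. All 7 animals, EYFP controls included, carried both transgenes, so no animal lacked the tagged ribosome. Each gave a pre-IP library of total brainstem RNA and an IP library, 14 libraries in all, and the labels name no other agent. Rpl10a is a protein of the large ribosomal subunit, and the label ties its eGFP fusion to Slc6a2, the noradrenaline transporter gene. Which cells other than Slc6a2-expressing ones carry the fusion is not given in the sources used here.

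The locus coeruleus is a small brainstem nucleus and the main source of noradrenaline in the forebrain. Its neurons take up tyrosine, turn it into dopamine through Th and Ddc, and make noradrenaline with Dbh inside vesicles loaded by Slc18a2. When ribosomes are tagged in such neurons and pulled down, the RNA that comes with them is richer in the transcripts these neurons translate, and the ratio of IP to pre-IP measures that richness for each gene.

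Libraries held 41843489 to 65664551 counts, so that the 3 counts used as a floor correspond to 0.0457 to 0.0717 CPM, the count scaled to a library total of 1000000. Markers of noradrenergic neurons, the cells the label of the IP names through Slc6a2, were present: 12 of 12 listed genes were higher in IP than in pre-IP (edgeR's quasi-likelihood test, Benjamini-Hochberg adjusted p under 0.05), and 11 of 12 with the animal as a block. Over all genes tested, 16.3% were higher. The 12 include Dbh, by which the 10 genes were chosen. For each of the 12, the mean log2 ratio of IP to pre-IP was larger in tau than in EYFP animals. It was 3.17 and 0.84 for Th, and 1.91 and -0.0036 for Cyb561. This difference in ratio between the groups was not tested. Several libraries stand apart from the rest or from their labels. Animal K, labelled EYFP, had 408 and 398 reads of the tau construct in pre-IP and IP, against 2 to 18 in H and I. Animal M, labelled female, had 674 and 1153 reads over 4 Y-linked genes. The IP RNA of animal I had an RNA integrity number of 4.2, against 7.7 to 9 in the other IP samples. Pituitary hormone transcripts were high in both libraries of animal L, as given with Gnb3. RNA concentration in the IP was lower in most tau than EYFP animals, with an overlap of C and K: it was 0.1, 0.8, 0.2 and 0.5 ng per µl in the IP of B, C, L and M and 2.8, 1.6 and 0.7 ng per µl in that of H, I and K. Its part in the results was not tested. In such tissue samples, fewer cells of a type and less RNA per cell cannot be told apart.

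RefSeq promoters (assembly GRCm38.p6, 250 bases before the start site to 50 after it) were found for 6 of the 10 genes, with 2 start sites for Calcr, and for Dbh. They were searched on both strands for 5 letter patterns: the homeodomain core TAATTA, the AP2-type repeat GCCNNNGGC, the GATA-type AGATAA, the hypoxia response core ACGTG and the cAMP response half-site TGACG. The promoters with a match are shown because these genes moved together with Dbh. Capitals mark the matched letters, 5′ to 3′ on the strand of the gene.
Dbh, chr2:27165257-27165556, plus strand: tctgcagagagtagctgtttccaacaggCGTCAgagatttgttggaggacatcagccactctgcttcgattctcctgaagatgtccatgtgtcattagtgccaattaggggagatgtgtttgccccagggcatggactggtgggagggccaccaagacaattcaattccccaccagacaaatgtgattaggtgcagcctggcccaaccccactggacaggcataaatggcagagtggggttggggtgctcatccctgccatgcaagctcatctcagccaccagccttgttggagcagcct
Calcr, downstream start site, chr6:3763574-3763873, minus strand: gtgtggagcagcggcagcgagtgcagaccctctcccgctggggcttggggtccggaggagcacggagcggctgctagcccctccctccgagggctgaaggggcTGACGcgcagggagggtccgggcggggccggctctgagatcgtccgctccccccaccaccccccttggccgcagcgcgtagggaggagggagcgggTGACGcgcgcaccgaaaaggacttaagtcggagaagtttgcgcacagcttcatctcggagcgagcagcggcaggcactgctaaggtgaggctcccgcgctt
Calcr, upstream start site, chr6:3764664-3764963, minus strand: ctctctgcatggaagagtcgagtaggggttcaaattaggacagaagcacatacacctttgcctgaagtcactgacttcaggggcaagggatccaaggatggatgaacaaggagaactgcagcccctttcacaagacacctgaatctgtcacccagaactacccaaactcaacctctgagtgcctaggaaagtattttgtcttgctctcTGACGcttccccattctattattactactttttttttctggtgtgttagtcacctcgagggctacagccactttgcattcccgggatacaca
Tmc3, chr7:83584681-83584980, plus strand: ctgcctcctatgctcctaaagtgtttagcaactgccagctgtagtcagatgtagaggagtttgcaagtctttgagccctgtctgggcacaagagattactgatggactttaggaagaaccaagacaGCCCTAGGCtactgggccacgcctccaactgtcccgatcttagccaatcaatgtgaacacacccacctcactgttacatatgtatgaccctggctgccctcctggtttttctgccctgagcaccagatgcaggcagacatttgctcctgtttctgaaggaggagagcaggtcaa

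The half-site TGACG stood in both Calcr promoters and in that of Dbh, where it lies on the opposite strand, and none of the marked matches overlapped another. It was in 2 of the 7 promoters of these genes, and in 20.8% of all 32851 promoters of the same length. The AP2-type repeat was in the Tmc3 promoter, 1 of 7, against 16.6% of all promoters. The homeodomain core, the GATA-type letters and the hypoxia core were in 0 of 7, against 5.29%, 11.2% and 19.6% of all promoters. The promoters of 5033406O09Rik, Shisal2b, Hspb3 and Apol10a held none of the 5 patterns. Adgre1, Gnb3, Ndufa4l2 and Gm50423 had no entry.

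The 10 genes were low in brainstem homogenate. Per kilobase of exon, the mean pre-IP level ran from 4.26 ± 0.65 RPKM (CPM divided by the exon length in kilobases; SD, n = 7) for Ndufa4l2 down to 0.0479 ± 0.0143 for Tmc3 (SD, n = 7) and 0.0018 for Apol10a, below the counting floor. Between them came 5033406O09Rik at 1.57 RPKM, Gnb3 at 1.28, Adgre1 at 1.06, Hspb3 at 0.893, Shisal2b at 0.785, Calcr at 0.597 and Gm50423 at 0.128. From 5033406O09Rik to Calcr, each gene lay within the summed SDs of the next in this order, and the same holds for Gm50423 and Tmc3. Some genes further apart in the order, such as 5033406O09Rik and Adgre1, differed by more than that. Others, such as Gnb3 and Calcr, did not. Dbh itself was at 5.01 ± 2.32 RPKM (SD, n = 7).

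In tau IP the order of the levels changed. Ndufa4l2 stayed first at 46.4 ± 34.8 RPKM, followed by Shisal2b at 25.96 ± 21.02, Adgre1 at 21.4 ± 18.5 and 5033406O09Rik at 19.5 ± 11.8 (SD, n = 4). Gm50423, among the lowest in homogenate, came next at 9.10 ± 6.51 RPKM, then Calcr at 6.74 ± 3.77, Hspb3 at 4.68 ± 1.44, Gnb3 at 4.11 ± 1.64, Apol10a at 0.904 ± 0.524 and Tmc3 at 0.325 ± 0.152 (SD, n = 4). The SDs hold the spread between the 4 animals, and no gene lay further from the next than their summed SDs, apart from Gnb3 and Apol10a.

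**Figure D1:**
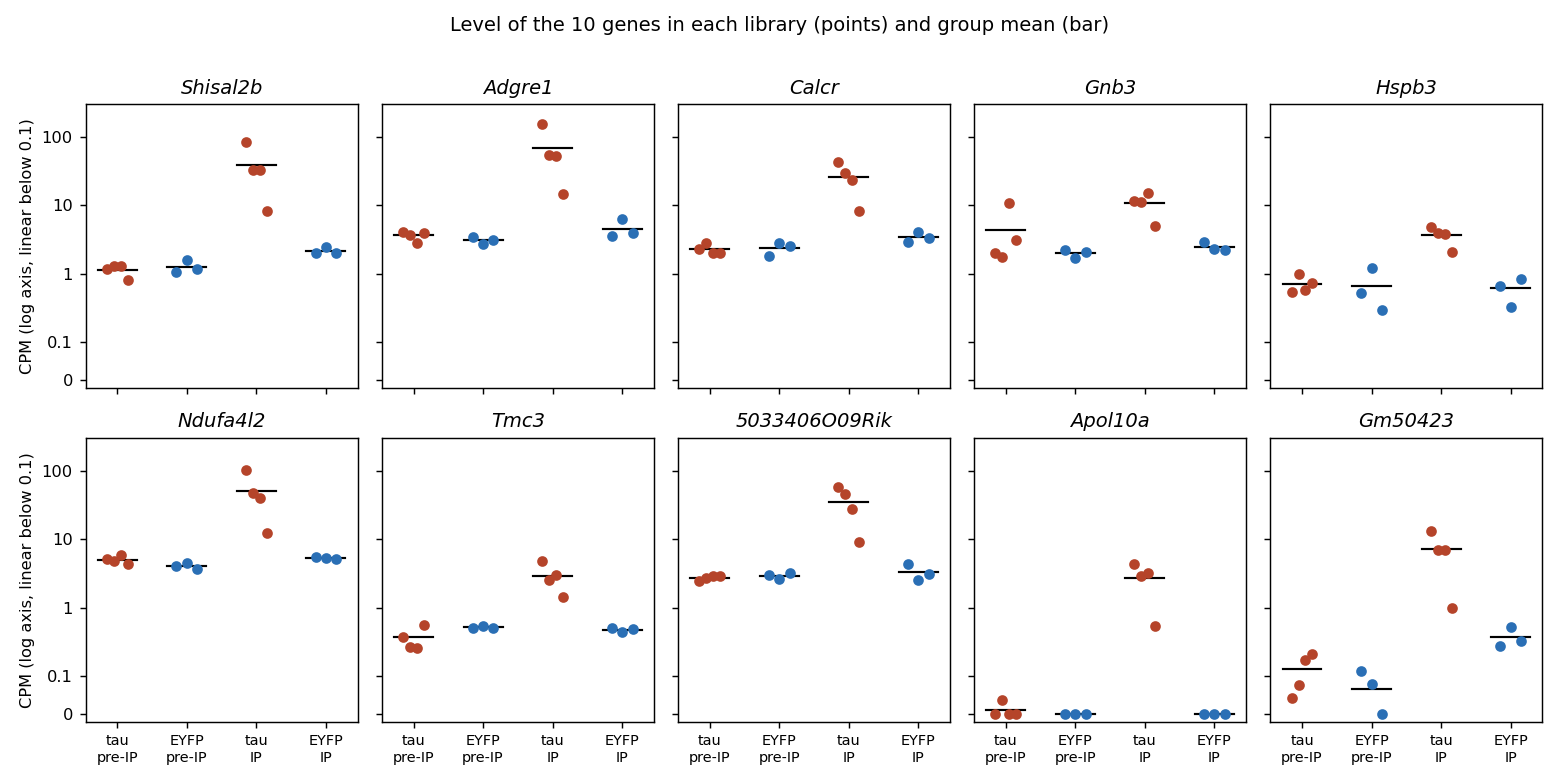
Level of each of the 10 genes in CPM (log axis, linear below 0.1) in the tau and EYFP pre-IP and IP libraries. Points are libraries in the order B, C, L, M and H, I, K, and bars are group means; in all 10 panels every tau IP library lies above every EYFP IP library, while the pre-IP groups overlap.

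Calcr (chr6:3685680-3764714, minus strand, 17 merged exons) encodes the calcitonin receptor, a G protein-coupled receptor that, with accessory proteins of the Ramp family, also binds amylin. Its pre-IP level was 2.30, 2.81, 2.05 and 2.00 CPM in tau animals B, C, L and M and 1.82, 2.85 and 2.52 CPM in EYFP animals H, I and K. In IP it was 43.8, 29.9, 23.3 and 8.32 CPM in B, C, L and M and 2.89, 4.10 and 3.36 CPM in H, I and K. The 7 pre-IP values overlapped between the groups, and in IP the lowest tau library, M, lay above all 3 EYFP libraries. The log2 ratio of IP to pre-IP was 3.38 ± 1.03 over the tau animals (SD, n = 4), against 0.52 ± 0.18 over the EYFP animals (SD, n = 3), and it was above 0 in 7 of 7.

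Adgre1 (chr17:57358691-57483527, plus strand, 22 merged exons) encodes an adhesion G protein-coupled receptor, F4/80, best known as a surface marker of macrophages and microglia. It was at 4.12, 3.73, 2.82 and 3.997 CPM in the pre-IP of B, C, L and M, and at 3.51, 2.77 and 3.14 CPM in that of H, I and K. The IP of tau animals held 154.6, 54.2, 53.3 and 14.8 CPM in the same order, and the IP of EYFP animals 3.56, 6.27 and 3.99 CPM. B stood far above the other libraries, and EYFP animal I was the highest of its group. The log2 ratio was 3.88 ± 1.51 over the tau animals (SD, n = 4), against 0.50 ± 0.56 over the EYFP animals (SD, n = 3).

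Gnb3 (chr6:124834240-124840275, minus strand, 10 merged exons) encodes a beta subunit of heterotrimeric G proteins, known from cone photoreceptors and bipolar cells of the retina. Its pre-IP level was 2.05, 1.75, 10.7 and 3.09 CPM in B, C, L and M and 2.20, 1.72 and 2.10 CPM in H, I and K. In IP it was 11.5, 11.4, 15.4 and 4.97 CPM in the tau animals and 2.92, 2.28 and 2.27 CPM in the EYFP animals. Animal L was high in both fractions, so that its log2 ratio, 0.56, was the lowest of the tau animals although its IP level was the highest. The ratio was 2.74 in B, 2.76 in C and 0.65 in M, and 0.46, 0.36 and 0.06 in H, I and K.

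The pre-IP of L also stood apart in transcripts of the pituitary. Summed over 7 pituitary genes, listed after the Gnb3 values had been seen, it held 5855 CPM, against 850.9 in M, 764.3 in K and 14.7 to 101.8 in B, C, H and I. Gh, growth hormone, was at 4437 CPM in L, 557.9 in M and 223.7 in K, and Prl, prolactin, at 963.3, 176.6 and 410.4 CPM. The IP libraries followed the same order of animals at the top, with 4466 CPM in L, 911.3 in M and 905.4 in K. Their part in the Gnb3 level was not tested.

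**Figure D2:**
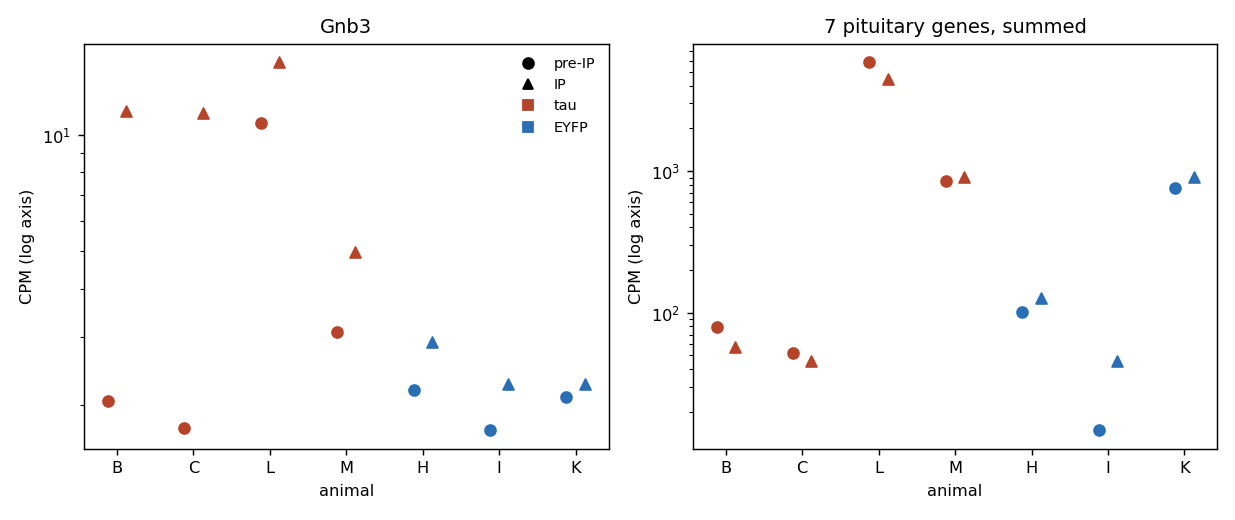
Gnb3 (left) and the sum of 7 pituitary genes (right) in CPM on log axes, by animal; circles are pre-IP, triangles IP, red tau and blue EYFP. Animal L is highest in pre-IP in both panels, at 10.7 CPM for Gnb3 and 5855 CPM for the sum.

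Shisal2b (chr13:104845283-104863893, minus strand, 4 merged exons) encodes a Shisa-like membrane protein; relatives of this family bind neurotransmitter receptors. It was at 1.17, 1.31, 1.29 and 0.806 CPM in the pre-IP of B, C, L and M and at 1.05, 1.60 and 1.17 CPM in that of H, I and K. IP levels were 84.6, 33.0, 32.8 and 8.27 CPM in the tau animals and 2.01, 2.44 and 2.01 CPM in the EYFP animals. All 7 animals were above their own pre-IP, and C and L were nearly equal. Its log2 ratio of 4.76 ± 1.28 over the tau animals (SD, n = 4), against 0.75 ± 0.20 over the EYFP animals (SD, n = 3) came nearest, among the protein-coding genes above the floor in every library, to that of Dbh, at 5.71 ± 1.87 and 1.48 ± 0.39.

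Tmc3 (chr7:83584927-83625614, plus strand, 23 merged exons) belongs to the transmembrane channel-like family, whose members Tmc1 and Tmc2 act in mechanotransduction in hair cells of the inner ear. It was rare, with 0.377, 0.269, 0.261 and 0.564 CPM in the pre-IP of B, C, L and M and 0.502, 0.541 and 0.511 CPM in that of H, I and K. In IP it reached 4.75, 2.54, 2.98 and 1.45 CPM in the tau animals and stayed at 0.503, 0.435 and 0.494 CPM in the EYFP animals. The EYFP log2 ratios of 0.06, -0.32 and -0.09 lay around 0, while the tau ratios ran from 1.29 in M to 3.80 in B. The antisense gene Gm16638 covers 28567 bases of Tmc3. The library kits do not mark strand, so reads in shared exons cannot be told apart. Gm16638 itself did not pass the test in IP against pre-IP (log2 fold change -0.11 ± 0.26 SE, edgeR adjusted p = 0.78).

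Ndufa4l2 (chr10:127514967-127517154, plus strand, 5 merged exons) is a paralogue of the mitochondrial gene Ndufa4 and a known target of hypoxia-inducible factor. It was at 5.17, 4.77, 5.91 and 4.38 CPM in the pre-IP of B, C, L and M and at 4.11, 4.53 and 3.74 CPM in that of H, I and K. In IP it was at 103.3, 46.8, 40.6 and 12.5 CPM in tau animals and at 5.57, 5.28 and 5.11 CPM in EYFP animals. The tau values fell in the order B, C, L, M, the order of Dbh, and the EYFP values were nearly equal. Its log2 ratio was 3.06 ± 1.29 over the tau animals (SD, n = 4), against 0.36 ± 0.16 over the EYFP animals (SD, n = 3).

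Hspb3 (chr13:113662896-113663676, minus strand, 1 exon) encodes a small heat shock protein known from muscle. Pre-IP levels were 0.544, 1.00, 0.574 and 0.741 CPM in B, C, L and M and 0.526, 1.203 and 0.292 CPM in H, I and K. Those in IP were 4.80, 3.93, 3.79 and 2.10 CPM in the tau animals and 0.670, 0.331 and 0.856 CPM in the EYFP animals. The EYFP animals disagreed in direction, with log2 ratios of 0.38 in H, -1.78 in I and 1.39 in K, the last close to the 1.44 of tau animal M. Each of the 6 EYFP libraries behind these ratios held 16 to 60 counts of Hspb3.

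Apol10a (chr15:77477047-77491069, plus strand, 4 merged exons) belongs to the apolipoprotein L family, a group of lipid-binding proteins that in mouse forms a dense gene cluster. It had 242, 136, 163 and 28 counts in the IP of B, C, L and M (4.31, 2.91, 3.22 and 0.536 CPM) and 0 in the IP of H, I and K. All pre-IP libraries were at 0 apart from C, with 2 counts. Against the highest floor of the EYFP IP libraries, 0.0621 CPM per library, the mean tau IP level of 2.74 ± 1.59 CPM (SD, n = 4) was at least 44.1-fold higher. It is the only one of the 10 genes with no count in any EYFP library of either fraction.

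5033406O09Rik (chr12:111941991-111944484, minus strand, 3 merged exons) is annotated as a long intergenic non-coding RNA of unassigned function. It was at 2.45, 2.71, 2.90 and 2.92 CPM in the pre-IP of B, C, L and M and at 3.01, 2.65 and 3.21 CPM in that of H, I and K. In IP it was at 57.9, 46.3, 27.7 and 9.13 CPM in the tau animals and at 4.40, 2.52 and 3.06 CPM in the EYFP animals. The tau animals kept the order of Dbh, and I and K were slightly below their own pre-IP. Its log2 ratio was 3.46 ± 1.39 over the tau animals (SD, n = 4), against 0.13 ± 0.41 over the EYFP animals (SD, n = 3).

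Gm50423 (chr18:81083064-81098084, plus strand, 3 merged exons, AC105065.1 in GENCODE M21) is the other long intergenic non-coding RNA. Homogenate held 2, 4, 10 and 13 counts in B, C, L and M and 5, 4 and 0 counts in H, I and K. IP held 755, 325, 357 and 52 counts in the tau animals and 18, 25 and 20 counts in the EYFP animals. Every animal was higher in IP, which held for 6 of the 10 genes and for 12.9% of all genes tested. With so few pre-IP counts its ratios are imprecise, and EYFP animals K, at 3.27, and I, at 2.20, both exceeded tau animal M, at 2.04: Gm50423 was the exception to the separation of tau and EYFP ratios.

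Across the 10 genes, 9 had the highest log2 ratio in animal B, the animal with the highest Dbh ratio, and 9 had their lowest tau ratio in animal M. Of the 21 pairs of animals, 17 to 20 were ordered as by Dbh; 8.58% of all genes tested in IP against pre-IP reach 17. Within the 4 tau animals, which form 6 pairs, 4 genes matched in 6 pairs (Shisal2b, Ndufa4l2, 5033406O09Rik and Gm50423), 5 in 5, and Gnb3 in 4. Tau ratios lay above all EYFP ratios for 9 of the 10 genes and for 5.11% of all genes tested. In the IP libraries themselves, all 10 genes were higher in every tau than in every EYFP library, as were 6.36% of all genes tested. Since the genes were chosen on these ratios, nothing is read from these counts.

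**Figure D3:**
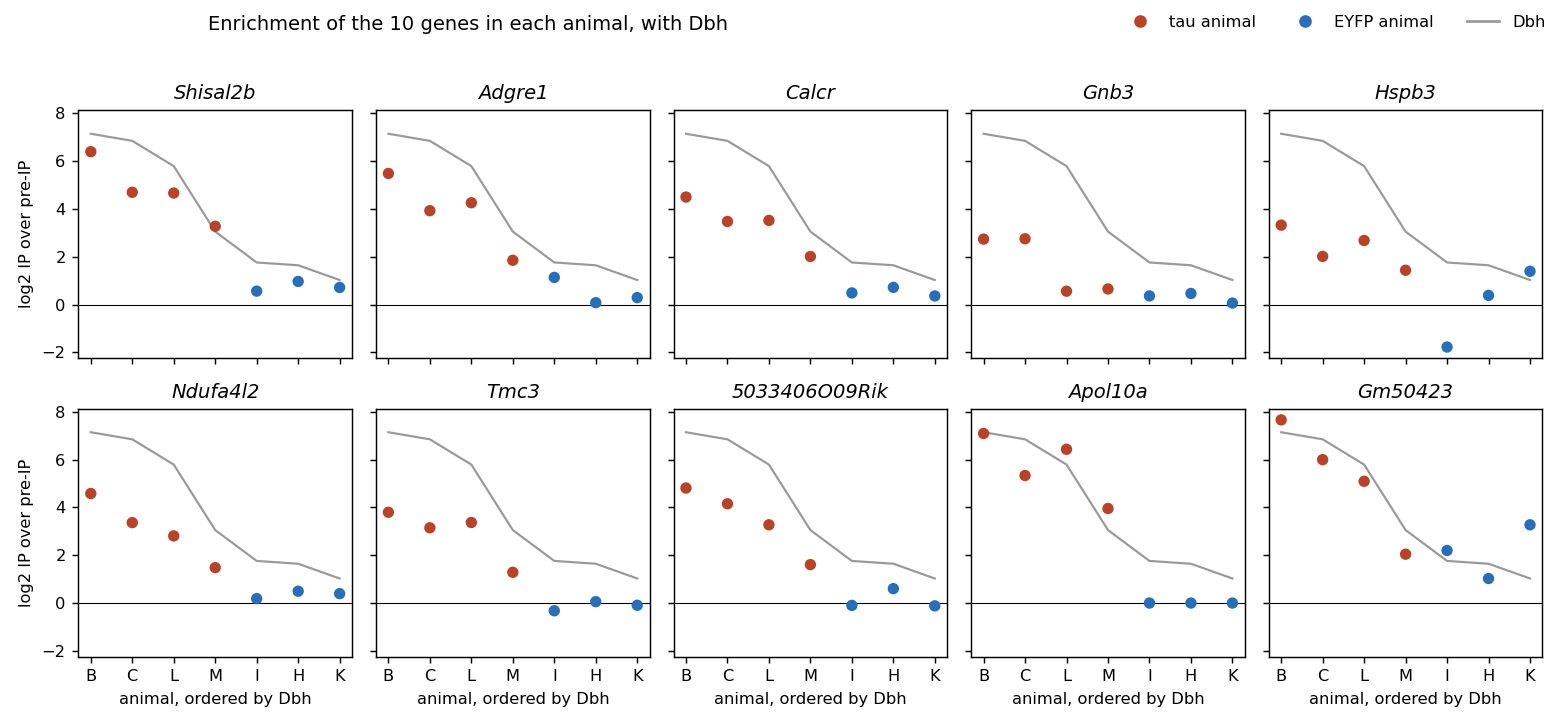
log2 ratio of IP to pre-IP (vertical axis) of each of the 10 genes in each of the 7 animals, ordered by the ratio of Dbh (grey line); red points are tau and blue points EYFP animals. B is highest for 9 genes, and the EYFP ratios lie between -0.32 and 1.14 except for Hspb3 and Gm50423; those of Apol10a are 0 because both libraries hold 0 counts.

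In the fit across all genes, 9 of the 10 passed the filter on low counts for IP against pre-IP, and Apol10a did not. Of these, 8 passed an adjusted p of 0.05 in the direction of higher in IP, as did 16.3% of the 18792 genes tested, and 14.7% passed as lower. Gnb3 was the exception, with a log2 fold change of 0.95 ± 0.38 (SE). The others ran from 1.41 ± 0.49 for Hspb3 to 4.95 ± 0.77 for Gm50423 (SE), with a median of 2.34 over the 9 against -0.0036 over all genes tested. These values restate the choice of the genes.

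The labels number the libraries A2 to A11 for animals B, C, H and I and A17 to A26 for K, L and M. Within each range, the mean tau ratio exceeded the mean EYFP ratio for 10 of 10 genes, as it did for 42.2% of all genes tested in the first range, 48.2% in the second and 24.2% in both. These are the ratios the genes were chosen on, so nothing is read from the count. Leaving aside Apol10a, whose EYFP ratios rest on 0 counts, the difference ran from 2.34 (Gnb3) to 5.22 (Gm50423) on the log2 scale in the first range. It ran from 0.30 (Gm50423) to 3.26 (Shisal2b) in the second, where K is the only EYFP animal.

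Set against Dbh in the same IP library and per kilobase of exon, the 10 genes lay far apart. Ndufa4l2 reached 19.7, 12.6, 14.2 and 24.01% of the Dbh level in B, C, L and M, and Tmc3 0.110, 0.0832, 0.127 and 0.338%. Some genes kept a nearly fixed proportion across the tau animals: the highest share was 1.37 times the lowest for Gm50423, at 2.63 to 3.59%, and 1.44 times for Apol10a, at 0.283 to 0.408%. Th, the enzyme that starts catecholamine synthesis, varied by 1.69 times. Others drifted away from Dbh as enrichment fell, with M 4.34 times as high as B for Gnb3 and highest by 4.41 times over B for Hspb3. Among the tau animals, Tmc3, Calcr, Ndufa4l2, 5033406O09Rik and Th were also highest in M.

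**Figure D4:**
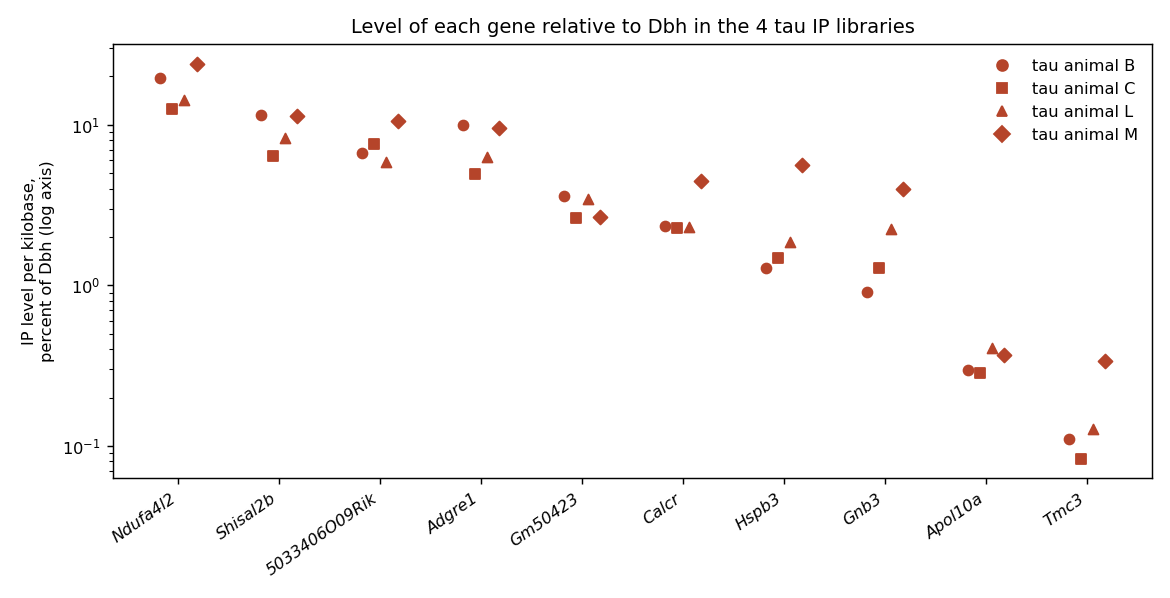
Level of each gene per kilobase as a percentage of Dbh (log axis) in the IP libraries of the 4 tau animals, each with its own symbol. Gm50423 and Apol10a vary least between animals. Hspb3, Gnb3, Tmc3, Calcr, Ndufa4l2 and 5033406O09Rik are highest in M.

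Levels in whole brainstem come from the pre-IP libraries, which were not compared between treatments in choosing the genes but are the denominators of the ratios. Dbh ratios were higher in every tau than in every EYFP animal. The choice therefore leans against genes with higher pre-IP levels in tau animals. For this reason, whether the infusion changed these genes in whole brainstem cannot be decided here. None of the 8 genes that passed the filter was called (edgeR's quasi-likelihood test, Benjamini-Hochberg adjusted p = 1.00 for each), and 0% of the 19197 genes tested were called. At an unadjusted p under 0.05 there were 545 genes, none of them among the 10, and DESeq2 called 0. Apol10a and Gm50423 had too few counts to be tested. In 0 of the 10 did the tau and EYFP pre-IP ranges separate, against 3.12% of all genes tested, and nothing is read from this count. The log2 fold changes of tau over EYFP were small for Shisal2b at -0.15 ± 0.29, Adgre1 at 0.24 ± 0.21, Calcr at -0.06 ± 0.24, Ndufa4l2 at 0.31 ± 0.19 and 5033406O09Rik at -0.09 ± 0.20 (SE). Hspb3 at 0.11 ± 0.46 and Tmc3 at -0.47 ± 0.40 (SE) were less precise. Gnb3 stood at 1.16 ± 0.55 (SE) with animal L and at 0.22 without it. A p that misses the threshold does not show that the levels were equal.

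Relatives of the genes, listed by family, give the context in which each moved. Over all 18792 genes tested in IP against pre-IP, 16.3% were called higher in IP and 14.7% lower. The counts below are to be set beside these shares. The families, microglia, pericytes and neighbours together gave 33 called genes, a count from which nothing is read. In EYFP animals alone 4 of them were still called (Arnt, Hif1a, Rgs5 and Srek1ip1), in tau animals alone 26 of the 32 with a value, and in animals B, C and H alone 0, with the direction kept in each. Of the calcitonin family, 1 of 7 tested members rose in IP and 0 fell: Calca, which encodes calcitonin and the neuropeptide CGRP, with a log2 fold change of 2.39 ± 0.60 (SE; adjusted p by edgeR = 0.0068). The family's median was -0.08, against -0.0036 over all genes. Calca was at 685.5, 296.0, 308.9 and 88.6 CPM in the IP of B, C, L and M and at 26.7, 35.8 and 46.6 CPM in that of H, I and K, against 21.5 to 34.9 CPM in pre-IP. The accessory protein genes that partner the receptor were not called. Ramp1, the most abundant of the list at 175.0 CPM in pre-IP, had a log2 fold change of -0.01 ± 0.13 (SE), Ramp2 of -0.18 ± 0.16 and Ramp3 of -0.08 ± 0.62. The sister receptor gene Calcrl was at -0.24 ± 0.33 (SE). Adm, adrenomedullin, was at -0.50 ± 0.26 and was called with the animal as a block (-0.58, edgeR adjusted p = 0.046). Calca was not past the threshold in EYFP animals alone, where it had a log2 fold change of 0.44 (edgeR adjusted p = 0.34), and was at 3.70 (adjusted p = 0.0056) in tau animals alone; the difference between the groups was not tested here.

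Of the other G protein beta subunits, 2 of 4 rose in IP and none fell. All changes were smaller than the 0.95 ± 0.38 (SE) of Gnb3, which was chosen for its ratio, so nothing is read from this. Gnb1, the most abundant at 257.1 CPM in pre-IP, rose by 0.36 ± 0.12 and Gnb2 by 0.35 ± 0.11 in log2 units (SE; adjusted p by edgeR = 0.027 and 0.028). With the animal as a block the adjusted p of Gnb2 was 0.053, above the threshold. Gnb1 also missed the threshold without C, I, L or M (0.053, 0.058, 0.064 and 0.10) and Gnb2 without B, C, H or L (0.071, 0.089, 0.088 and 0.068). Gnb4 was at 0.07 ± 0.11 and Gnb5 at -0.05 ± 0.09 (SE).

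For Adgre1, 1 of 2 subfamily relatives was tested: Adgre5 was at -1.10 ± 0.41 (SE; adjusted p by edgeR = 0.053), and at -1.23 (adjusted p = 0.048) with the animal as a block. Markers of microglia, in which Adgre1 is a standard marker, were present in every group. Of 14 tested, 0 rose and 3 fell in IP: Csf1r, the receptor for colony-stimulating factor, by 0.69 ± 0.16, Tmem119 by 0.65 ± 0.16 and Cx3cr1, the fractalkine receptor, by 0.57 ± 0.13 in log2 units (SE; adjusted p by edgeR = 0.0039, 0.0055 and 0.0048). The list summed to 214.5 to 399.4 CPM in tau IP and 358.4 to 422.3 CPM in EYFP IP, against 338.9 to 469.2 CPM in pre-IP.

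None of the 10 tested relatives of Shisal2b in the Shisa family was called, with a median log2 fold change of -0.03 against -0.0036 over all genes. Shisal2a, the nearest by name, was at -0.02 ± 0.29 (SE), Shisa4, the most abundant at 266.9 CPM in pre-IP, at -0.04 ± 0.15, and Shisa3 at 1.12 ± 0.45 with an edgeR adjusted p of 0.068. Shisal1, at -0.59 ± 0.23, was called with the animal as a block (-0.63, edgeR adjusted p = 0.017). Of the relatives of Tmc3, 2 of 4 tested fell and 0 rose: Tmc7, the most abundant at 17.5 CPM in pre-IP, by 0.81 ± 0.20 and Tmc8 by 2.48 ± 0.77 in log2 units (SE; adjusted p by edgeR = 0.0056 and 0.022). Tmc8 was at 0.258 CPM in pre-IP and at most 0.0383 CPM in tau IP, below the counting floor, so the size of its fall is uncertain. Without animal C, L or M its edgeR adjusted p was 0.061, 0.069 or 0.056. Tmc4 and Tmc6 were not called.

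Small heat shock genes other than Hspb3 were not called in any case: 0 of 7 tested passed, with a median of -0.17. Cryab, the most abundant at 579.8 CPM in pre-IP, was at -0.17 ± 0.11 and Hspb2 at 0.08 ± 0.23 (SE).

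Ndufa4 and the nuclear subunits of cytochrome c oxidase, respiratory complex IV, rose together. In IP 11 of 12 were higher and 0 lower, with a median log2 fold change of 0.54. Ndufa4 rose by 0.61 ± 0.16 (SE; adjusted p by edgeR = 0.0071), and Cox6c by 0.75 ± 0.15 (adjusted p = 0.0014); Cox4i1, the most abundant at 1658 CPM in pre-IP, rose by 0.43 ± 0.10 (adjusted p = 0.0039). The exception was Cox4i2, an isoform used in lung and smooth muscle, at -0.31 ± 0.24 (SE). These shifts were smaller than the 2.21 ± 0.56 (SE) of Ndufa4l2, which was chosen for its ratio, so nothing is read from the difference. Without animal C, Cox5a, Cox6a1 and Cox6b1 had edgeR adjusted p-values of 0.11, 0.058 and 0.058, and Cox5a also missed the threshold without B, L or M (0.052, 0.054 and 0.059).

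Of 18 genes of the hypoxia response tested, 3 rose and 3 fell, with a median of -0.13. These counts are close to the 16.3% called higher and 14.7% called lower over all genes tested. Hif1a rose by 0.52 ± 0.14, Ldha, lactate dehydrogenase A and the most abundant after Higd1a, by 0.70 ± 0.18, and Higd1a by 0.53 ± 0.17 in log2 units (SE; adjusted p by edgeR = 0.011, 0.0065 and 0.025). Arnt, the partner of Hif1a, fell by 0.69 ± 0.15, Vegfa, the angiogenic factor, by 0.57 ± 0.13, and Slc2a1, the glucose transporter, by 0.41 ± 0.15 (SE; adjusted p by edgeR = 0.0026, 0.0038 and 0.043). With the animal as a block, 4 rose and 5 fell, since Pgk1 (0.32, edgeR adjusted p = 0.033), Epas1 (-0.49, adjusted p = 0.032) and Adm (-0.58, adjusted p = 0.046) were then called. Higd1a missed the threshold without C or L (adjusted p = 0.087 and 0.082), and Slc2a1 without B, C, K, L or M (0.072, 0.089, 0.091, 0.10 and 0.069). Pericyte markers were listed because pericytes are known to express Ndufa4l2. Of these, 1 rose, 2 fell and 7 of 10 were not called, also near the shares over all genes. Rgs5 rose by 0.71 ± 0.13, while Pdgfrb fell by 1.22 ± 0.32 and Notch3 by 1.05 ± 0.25 (SE, adjusted p by edgeR = 0.0010, 0.0079 and 0.0044). The pericyte list summed to 52.3 to 106.6 CPM in tau IP and 89.9 to 129.3 CPM in EYFP IP, against 84.3 to 130.3 CPM in pre-IP.

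**Figure D5:**
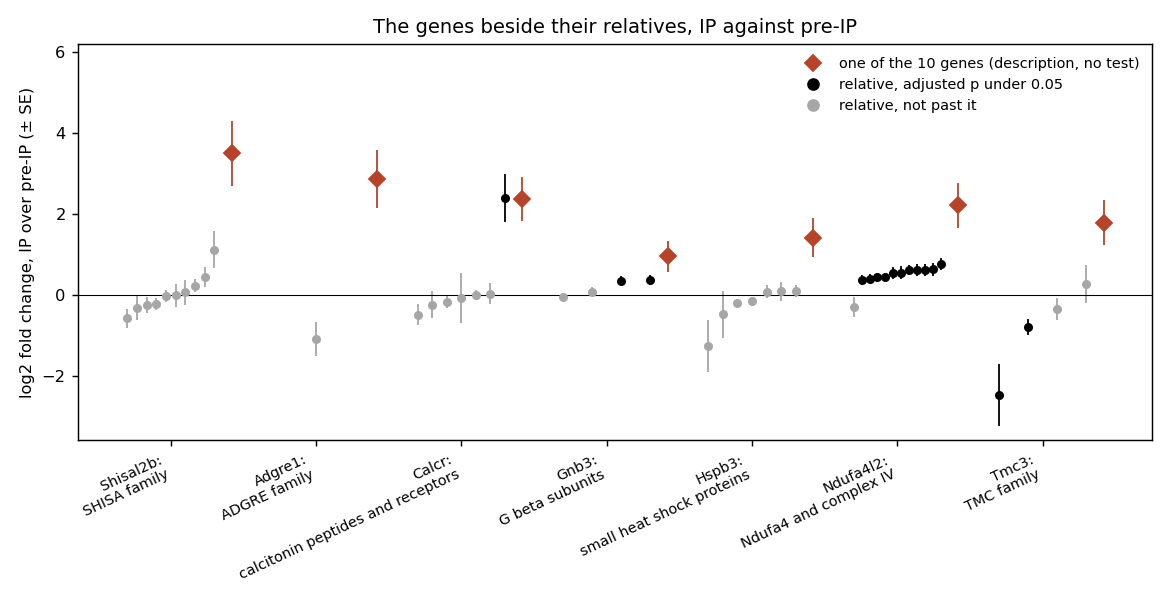
log2 fold change of IP over pre-IP (vertical axis, bars are SE) for 7 of the 10 genes (red diamonds, shown as a description) and their tested relatives (black, past an adjusted p of 0.05; grey, not past it). Calca is the relative closest to its family member, 2.39 beside 2.37 for Calcr, and the complex IV genes lie between -0.31 and 0.75.

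In the apolipoprotein L family, 5 of 12 genes were tested, 0 rose and 1 fell: Apol8, the most abundant at 16.2 CPM in pre-IP, by 0.58 ± 0.12 in log2 units (SE; adjusted p by edgeR = 0.0019). Most of the others are too rare to test. Apol11a, the next gene to the right of Apol10a, had 14, 6, 24 and 4 counts in the IP of B, C, L and M and 0 in every other library. 4930571N24Rik, in the same cluster and named after its counts were seen, had 27, 1, 3 and 6 counts in the tau IP libraries and 0 elsewhere. Apol9a held 220, 188, 130 and 34 counts in the tau IP libraries and 36, 32 and 64 in EYFP IP (log2 fold change of IP over pre-IP 0.95 ± 0.48 SE, edgeR adjusted p = 0.15). Others of the family had more IP counts in EYFP than in tau animals: Apol6 had 75 over the 3 EYFP libraries and 48 over the 4 tau libraries, Apol7a 20 and 0, Apol7d 10 and 2, and Apol10b 18 and 14. Further members had more in tau, with EYFP and tau totals of 0 and 20 for Apol7c, 0 and 17 for Apol7e and 2 and 19 for Apol7b. The totals were 121 and 256 for Apol9b and 49 and 76 for Apol11b. Genes of this family are closely related copies, and the counting could split reads among them, so these counts are uncertain.

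Chromosomal neighbours were taken by position, the nearest gene on each side and any that overlaps. Of the 20 flanking genes, 10 were tested, 3 rose and 1 fell in IP. Nxph4, which encodes the secreted neurexin ligand neurexophilin-4 and lies 8319 bases to the right of Ndufa4l2 on the other strand, rose by 1.46 ± 0.44 in log2 units (SE; adjusted p by edgeR = 0.019). Its ratios of 3.55, 2.65, 1.90 and 0.50 in B, C, L and M and 0.62, -0.17 and 0.06 in H, I and K fell in the order of Dbh within the tau animals. Without animal C or L its adjusted p was 0.076 or 0.068. Vav1, to the left of Adgre1, went the other way, with ratios of -3.38, -2.25, -1.58 and -0.41 in B, C, L and M. In H, I and K its ratios were -0.19, 0.005 and -0.05. Gm36757, to the right of 5033406O09Rik, was at -1.68, -1.20, -0.63 and -0.33 in the same tau animals. Vav1, Gm36757, Snx18 (left of Hspb3) and Stac3 (left of Ndufa4l2) were not called.

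Srek1ip1, a splicing-associated gene 6009 bases to the left of Shisal2b, rose by 1.04 ± 0.14 (SE; adjusted p by edgeR = 9.0e-05). Its ratios were alike in the groups, 1.01 to 1.27 in tau animals and 0.66 to 1.08 in EYFP animals. Vps50, 82149 bases to the left of Calcr, rose by 0.68 ± 0.15, and Stard5, 6345 bases to the right of Tmc3, fell by 0.65 ± 0.14 in log2 units (SE; adjusted p by edgeR = 0.0032 and 0.0028). The close neighbours of Gnb3 were not called: Cdca3, 539 bases away, was at -0.15 ± 0.27, and P3h3, 814 bases away, at 0.25 ± 0.22 (SE). Shmt2 overlaps Ndufa4l2 by 32 bases on the opposite strand and was at 0.33 ± 0.20 (SE; adjusted p by edgeR = 0.23). Both flanking genes of Gm50423 had 0 counts in all libraries, the nearer of them 32682 bases away. Shisal2b and Hspb3 share chromosome 13 and Calcr and Gnb3 chromosome 6, and no gene of the 10 is the nearest neighbour of another.

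The genes whose profile over the 7 animals was most like the mean profile of the 10 were sought outside both this set and the noradrenergic list. Likeness was the root-mean-square difference of log2 ratios after centring each gene on its own mean, and its median over all 18792 genes was 1.87. The 5 closest were Calca at 0.245, Nr4a3 at 0.304, Gpx3 at 0.328, Slc10a4 at 0.348 and Uts2b at 0.370. Of the 10 genes themselves, Ndufa4l2 at 0.275, Tmc3 at 0.278 and Calcr at 0.282 were the nearest to their mean and Gnb3, at 1.09, the farthest; Apol10a was not compared.

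Nr4a3 is an orphan nuclear receptor gene, and its ratios were 5.51, 3.51, 3.70 and 1.49 in B, C, L and M and 0.38, -0.15 and 0.52 in H, I and K. Gpx3, a secreted glutathione peroxidase gene, was the most abundant of the 5, at 1530 ± 1046 CPM in tau IP (SD, n = 4) and 207.9 ± 24.2 CPM in EYFP IP (SD, n = 3). Slc10a4, a vesicular transporter gene expressed in monoaminergic and cholinergic neurons, was at 257.7 ± 158.0 and 37.7 ± 9.7 CPM. Uts2b, a urotensin II-related peptide gene, was at 17.5 ± 11.2 and 2.32 ± 1.17 CPM. These 5 were picked for their likeness, so that their values are given as a description.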

How the data were processed

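Per the labels, RNA was made into libraries with SMART-Seq v4 and Nextera XT; these kits do not mark strand. Per the submitters' processing notes, reads were processed with FastQC, Trim Galore, STAR and featureCounts on GRCm38 (mm10); versions are not given in the sources used here. The authors deposited raw counts per gene, and a sample sheet with total reads as counts, RNA integrity as a score and RNA concentration. From the counts, CPM used library totals and RPKM the deposited exon lengths. Counts were tested with edgeR 4.0.16 in R 4.3.3 (filterByExpr, TMM, quasi-likelihood), the fraction fit with treatment as a term, and p-values were adjusted over all genes tested at 0.05. Ratios used TMM-scaled log2 CPM with a prior count of 2. The animal letter pairs IP and pre-IP by source, and deviations correlated within each pair (0.15 to 0.40 over genes). DESeq2 1.42.0, normalization, filtering, the block, library-number range and left-out animals were alternatives. Scripts were tested on simulated data.

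The 10 genes and all lists were chosen with earlier results of these data known. Named were all 10 genes, and family members past the threshold or most abundant in pre-IP. Tested neighbours by position and the 5 genes of most alike profile were also named. The called genes Cox5b, Cox7a2, Cox7b, Cox7c and Cox8a meet this rule but were only counted. Other relatives given with values (Ramp2, Ramp3, Calcrl, Gnb4, Gnb5, Shisa3, Shisal1, Shisal2a, Adgre5, Hspb2, Cox4i2, Adm, Epas1, Pgk1, the Apol genes other than Apol8, and 4930571N24Rik) fall outside this rule and were chosen after their values were seen. Marker lists for oligodendrocytes (0 rose, 3 fell in IP of 8), astrocytes (1 rose, 2 fell of 8), serotonergic (0 of 4 called), cholinergic (1 rose of 5), inhibitory (0 of 4 called) and glutamatergic neurons (1 fell of 3) were also read. The letters in the labels are taken as separate animals. Identity between proteins was planned and not run.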

Additional observations from a re-analysis of the deposited data

Results flagged for a closer look

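In groups of 4, 3 values stood further from the others than Dixon's 95% criterion allows. Chance marks about 1 in 20 groups, but the number searched is not given here, so nothing is read from the 3. Gnb3 in the pre-IP of tau animal L was at 10.7 CPM, against 1.75 to 3.09 CPM in the other tau animals, in the library that also held the most pituitary transcripts. Apol10a in the pre-IP of tau animal C was at 0.0385 CPM, which is 2 counts and below the floor of 3 counts. The other 3 were at 0, so that any count in C would have been flagged. Nr4a3 in the pre-IP of animal C was at 1.73 CPM, against 0.628 to 0.774 CPM in B, L and M.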

How the results depend on the processing

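For IP against pre-IP, 5828 genes were called, 6119 with the animal as a replicate block, and 4291 to 5920 without 1 animal. EYFP animals alone gave 1218, and animals B, C and H alone, chosen after seeing the data, 133; both fits hold fewer libraries. For tau against EYFP in pre-IP, 0 were called, 44 with no filter on low counts, and 0 to 1 without 1 animal (1 without B or without K). For tau against EYFP in IP, 0 of 19472 were called (2336 at an unadjusted p under 0.05), 113 with no filter, 345 with DESeq2, and 0 to 128 without 1 animal (128 without M). The cause of these shifts was not tested. Of the 135 recomputed IP over pre-IP values of the 9 genes tested, 127 kept their size within the spread between animals. Apol10a, not tested in the main fit, is not among them. The 6 that moved and the 2 that reversed all came from EYFP animals alone. There Hspb3 was at -0.11 and Tmc3 at -0.12. Against the main fit, Shisal2b was at 0.74 (3.49), Adgre1 at 0.54 (2.86) and Calcr at 0.51 (2.37). Ndufa4l2 was at 0.36 (2.21), 5033406O09Rik at 0.17 (2.34) and Gm50423 at 2.51 (4.95). Gnb3 was also lower in that setting, at 0.31 (0.95), but this change lay within the spread between its animals. In pre-IP, leaving out 1 animal moved the tau over EYFP log2 fold change across 0 for Shisal2b (-0.30 to 0.052), Calcr (-0.25 to 0.080), Hspb3 (-0.24 to 0.85) and 5033406O09Rik (-0.16 to 0.017). Of the 33 relatives, markers and neighbours called, 32 were called with the replicate block (Gnb2 was not), 33 with DESeq2, 33 with its size factors and 24 to 32 without 1 animal; Cyb561 of the noradrenergic list lost its call with the block (adjusted p = 0.054). Depth limits Apol10a and Gm50423, which the pre-IP comparison did not test.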
